A study of Mus musculus with 18 samples.

Results

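The histone cluster and variant genes are the genes of the core and linker histones, chosen here by name: every entry of the authors' normalized table whose name begins with Hist1h, Hist2h, Hist3h, Hist4h, H2af, H3f3 or H1f. They are 72 of 30848 names, of which 56 are of replication-dependent histone genes, 11 of replacement variants and 5 of histone genes known from the germ line. Among the replacement variants H2afy2 and H2afy3 have the same current gene, Macroh2a2. Among the replication-dependent names Hist3h2bb has the current symbol of a pseudogene, H2bu1-ps. The names are those of the table, and current symbols are given in brackets for the replacement variants. RNA came from 2 lines of mouse embryonic stem (ES) cells, named AB2.2 and PL2F8, taken at days 0, 2, 4, 6 and 8 once LIF had been removed, the cytokine that holds mouse ES cells in the undifferentiated state. A line has 2 Illumina bead arrays for every day up to day 6 and 1 for day 8, which makes 18. No genotype, transgene, or agent other than the loss of LIF is given for any group, day 0 is the only control, and the genetic relation of the lines is not given.

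Replication-dependent histone genes make the bulk of H1, H2A, H2B, H3 and H4 in S phase, when new DNA has to be packed. They lie in clusters, most of them without introns, and their mRNAs end in a stem-loop bound by SLBP in place of a poly(A) tail. Replacement variants such as H3.3, H2A.Z and macroH2A come from single genes with introns and polyadenylated mRNAs and are deposited outside S phase as well. ES cells divide fast with short gap phases, and their division slows as they differentiate. The labels name only the standard labelling of the array maker, so which share of the stem-loop mRNAs was labelled is not known, and the values below follow the labelled RNA. Genes within a replication-dependent family are near-identical in their coding part, and without probe sequences the signals of such copies cannot be told apart.

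Across 15 of the arrays the mean signal lay between 284 and 493, and 41.9% to 45.0% of probes were detected. The lowest of these signals were 284 and 286, on the PL2F8 arrays of day 4. The 3 others were dim. The PL2F8 arrays of day 6 had mean signals of 135 and 137 and detection rates of 37.8% and 40.0%. For day 8 the PL2F8 values were 60.1 and 20.9%. Replicate arrays correlated across genes at 0.988 to 0.998, a description since genes are not independent. The standard deviation of the difference between replicates was 0.335 in PL2F8 at day 6 and 0.153 to 0.191 in the other groups. Values of PL2F8 at days 6 and 8 rest on these dim arrays and are from quantile normalization unless median scaling, the second scaling used here, is named. The labels do not say that replicate arrays came from separate cultures, so p-values measure the spread between these arrays, which may be technical.

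Of the 72 histone names 63 had a probe detected on at least 2 of the 18 arrays and were tested, among 16985 names in all. These were 52 of the replication-dependent genes, 10 of the replacement variants and 1 germ line gene, Hist1h2aa. Detected on at most 1 array were H1foo, H1fnt, Hist1h1t and Hist1h2ba, which are known from oocytes or testis, and the name H2afy3 of the macroH2A series. The same holds for the replication-dependent names Hist1h1e, Hist3h2a, Hist3h2ba and Hist3h2bb, the last with the symbol of a pseudogene. Hist1h2aa, a testis H2A gene, lay between 4.49 and 5.0 on the log2 scale over the 18 arrays and passed no test among those made here. Changes are differences of normalized log2 signal, ± is the standard error of the limma model, and a gene is called at an adjusted p below 0.05 over all 16985 names.

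In AB2.2 the replication-dependent genes fell with time. At day 6 against day 0, 38 of 52 were called lower and 0 higher (limma, 2 arrays against 2), while 26.3% of all names tested were called lower and 28.2% higher. Of these, 26 were lower by at least 2-fold, against 6.13% of all names. The median change of the 52 was -1.0, beside 0.00 for all names tested. With the 3 members not detected at day 6 at their bound and the 1 detected on neither side left out, it was -1.04. Of the 52 genes, 24 had a lower group mean at every step from day 0 through days 2, 4, 6 and 8, and 4.60% of all names did so. Of the replacement variants, 5 were called higher and 3 lower, with a median of 0.12. Under median scaling, which moved the median of all names to 0.17 and the share of higher calls from 51.8% to 70.1%, 36 of the 52 were lower and 1 higher. At day 8, with 1 array, 37 of the 52 were called lower and 0 higher, where 24.0% of all names were lower and 23.9% higher, and the median was -1.31.

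**Figure D1:**
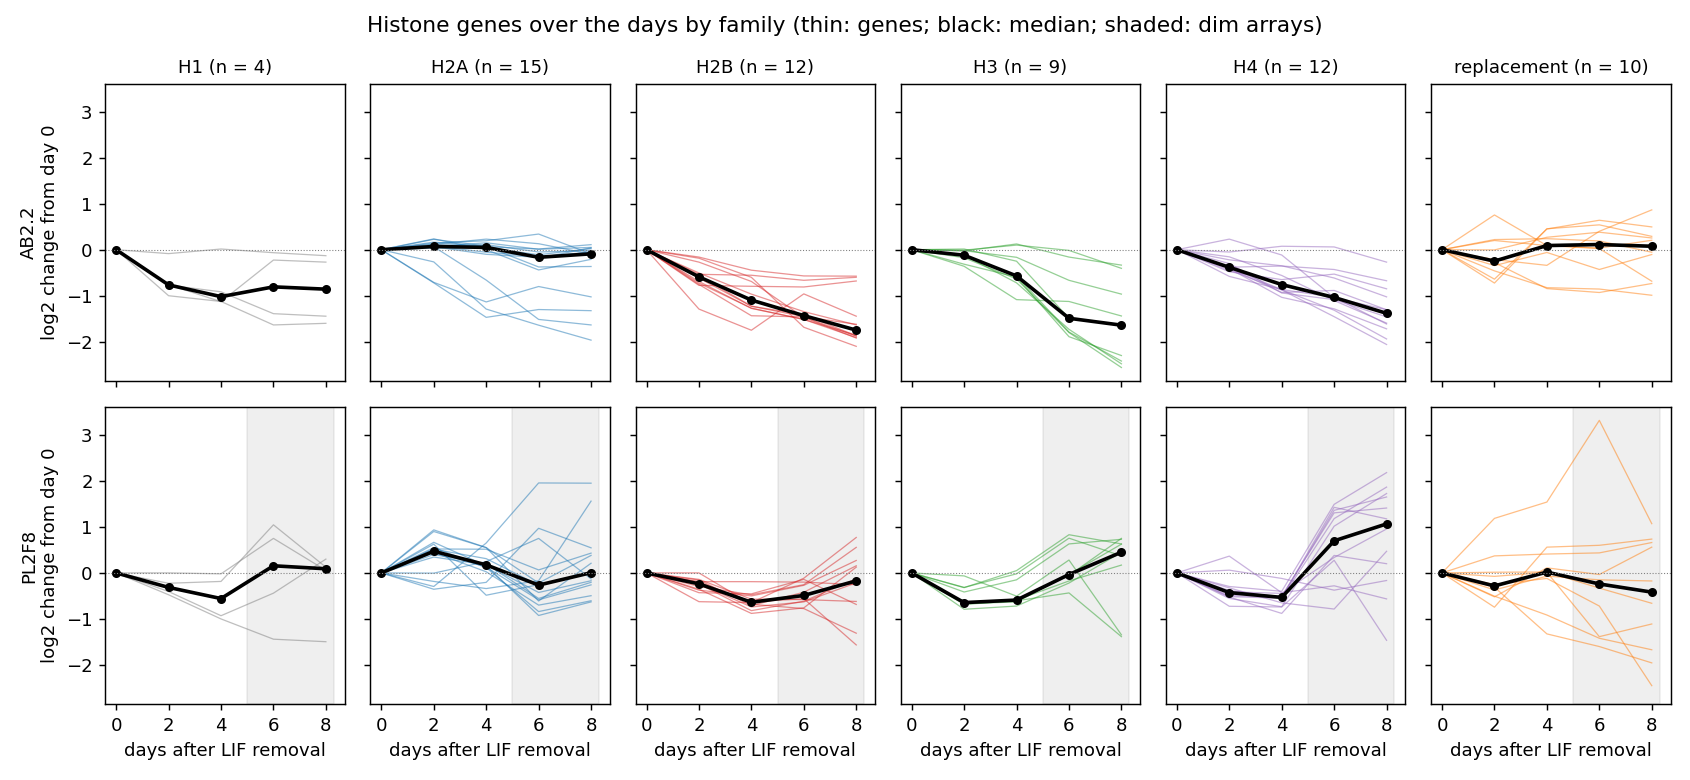
Change of normalized log2 signal from the day 0 mean of the same line (vertical axis) over days after LIF removal (horizontal axis). Each thin line is 1 gene, the black line is the median of the family, rows are the lines AB2.2 and PL2F8, and shading marks the dim PL2F8 arrays. In AB2.2 the medians of H2B, H3 and H4 go down at every step and reach -1.75, -1.64 and -1.38 at day 8.

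H2B, which pairs with H2A in the nucleosome, fell most evenly. All 12 measured H2B genes were called lower in AB2.2 at day 6, with changes from -1.69 to -0.57 and medians of -0.59 at day 2, -1.09 at day 4, -1.43 at day 6 and -1.75 at day 8. Hist2h2be, whose mRNA is known in human cells to have a polyadenylated form, was at 8.79 and 8.81 at day 0, 8.65 and 8.58 at day 2, 8.22 and 8.18 at day 4, 7.12 and 7.11 at day 6, and 6.70 at day 8. No 2 of these days overlapped, and the day 6 change was -1.69 ± 0.07 (adjusted p = 7.2e-10). Hist1h2bk was at 9.13 and 9.07, then 8.87 and 8.79, 8.34 and 8.48, 7.64 and 7.62, and 7.18, again with no overlap between days (day 6 change -1.47 ± 0.09, adjusted p = 3.4e-08). Hist1h2bn was at 8.75 and 8.63 at day 0, 8.00 and 8.00 at day 2, 7.40 and 7.43 at day 4, 7.14 and 7.21 at day 6, and 6.83 at day 8, so most of its fall came by day 4 (day 6 change -1.52 ± 0.09, adjusted p = 1.5e-08). Hist1h2bh, Hist1h2be and Hist1h2bj fell by a similar amount, with -1.52, -1.46 and -1.46. Hist1h2bc ran differently: it went from 9.69 and 9.56 at day 0 to 7.83 and 7.92 at day 4 and stood at 8.70 and 8.63 at day 6, above its day 4 values. The dimmest H2B genes, Hist1h2bg, Hist2h2bb and Hist1h2bb, had the smallest changes. Hist1h2bg and Hist2h2bb were not detected at day 6, and their falls are at least 1.31-fold and at least 1.25-fold.

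H3, the core histone that carries many of the studied tail marks, fell later in AB2.2. In PL2F8 it did not, with a median of -0.65 at day 2 against -0.24 for H2B and -0.43 for H4. Of 9 measured genes 7 were called lower in AB2.2 at day 6. The AB2.2 medians were -0.12 at day 2, -0.57 at day 4, -1.49 at day 6 and -1.64 at day 8. Hist1h3d changed most of all histone genes at day 6. It was at 9.85 and 9.81 at day 0, 9.40 and 9.63 at day 2, 9.24 and 9.23 at day 4, 7.87 and 8.01 at day 6, and 7.53 at day 8, so its largest step lay between days 4 and 6 (day 6 change -1.89 ± 0.10, adjusted p = 5.5e-09). Hist1h3e followed the same course, with 9.89 and 9.89, then 9.74 and 9.69, 9.14 and 9.37, 8.13 and 8.05, and 7.33 (day 6 change -1.80 ± 0.09, adjusted p = 4.5e-09). Hist1h3a stayed at 8.76 on both day 2 arrays after 8.85 and 8.91 at day 0, and then fell to 8.15 and 8.17, 7.17 and 7.13, and 6.40. Hist1h3f changed by -1.79 and Hist1h3c by -1.49 at day 6. A second, dim probe of Hist1h3f, with a mean log2 signal of 5.52 against 8.72, gave 0.18. The exceptions were the H3 genes of the Hist2 cluster on chromosome 3, Hist2h3b with -0.16 and Hist2h3c1 with -0.02, neither of them called. A dimmer second probe of Hist2h3c1 gave -1.20, so probes of that name disagree in size.

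H4, the partner of H3, fell at a steady rate, with AB2.2 medians of -0.38, -0.75, -1.04 and -1.38 at days 2, 4, 6 and 8, and 11 of 12 genes were called lower at day 6. Hist1h4a was at 9.35 and 9.49 at day 0, 8.89 and 9.06 at day 2, 8.54 and 8.55 at day 4, 7.84 and 8.09 at day 6, and 7.36 at day 8, with no overlap between days (day 6 change -1.45 ± 0.10, adjusted p = 9.4e-08). Hist1h4i was at 7.79 and 7.75, then 7.18 and 7.54, 6.75 and 6.72, 6.52 and 6.45, and 6.05. Only Hist4h4, the single H4 gene outside the clusters, was not called at day 6, with 0.06, and its signal was near the dim end at a mean of 4.72.

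Linker histones, which bind the DNA between nucleosomes, were measured through 4 replication-dependent genes. Hist1h1a was at 6.01 and 6.11 at day 0 in AB2.2, at 4.94 and 5.18 at day 2, at 4.88 and 4.99 at day 4, and was not detected at day 6, where its fall is at least 2.56-fold (limma adjusted p = 1.4e-08). Hist1h1b fell with it, from 6.13 and 6.10 to 4.76 and 4.69 at day 6 (-1.39 ± 0.11). Hist1h1c went the way of Hist1h2bc, from 9.08 and 8.96 at day 0 to 7.90 and 7.88 at day 4 and back to 8.75 and 8.84 at day 6, where it was not called (-0.22, adjusted p = 0.06). Hist1h1d was not detected in AB2.2 at day 0 or day 6.

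H2A stood apart in AB2.2, with 6 of 15 genes called lower at day 6, where 26.3% of all names were, and a median of -0.17. The genes fell into a bright and a dimmer set, a division made after the values were seen and therefore not tested. In 8 genes the mean log2 signal was at least 12: Hist1h2ad, Hist1h2af, Hist1h2ah, Hist1h2ai, Hist1h2ak, Hist1h2an, Hist1h2ao and Hist2h2ac. These ranked at or above the 98.8th percentile of all names. Their AB2.2 changes at day 6 ran from -0.19 to 0.14 with a median of -0.08, and 0 of 8 were called. These are values of the brightest probe of each gene. Dimmer probes of 5 of them gave lower values, with -0.40 for Hist1h2ad, -0.31 for Hist1h2ah, -0.25 for Hist1h2ai, -0.17 for Hist1h2af and, at a mean signal of 5.60 against 14.42, -1.01 for Hist2h2ac. Hist1h2ah, singled out after its values were seen because it shares a promoter region with Hist1h2bk, was at 13.23 and 13.05 at day 0, 13.38 and 13.35 at day 2, 13.26 and 13.18 at day 4, 12.93 and 12.98 at day 6, and 13.18 at day 8. The 7 other H2A genes had a median of -0.80, and 6 were called lower. Hist1h2ae went from 7.52 and 7.33 at day 0 to 5.88 and 5.69 at day 6 (-1.64 ± 0.10) and Hist1h2ab from 6.89 and 6.76 to 5.31 and 5.31 (-1.51). Hist2h2aa2 and Hist2h2aa1 fell by 1.30 and 0.80 on the log2 scale. The unnormalized medians of the 8 bright genes lay between 18800 and 29600 over the 15 brighter arrays, where the brightest probe of an array reached at most 46900. How far such signals follow RNA amount was not tested.

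**Figure D2:**
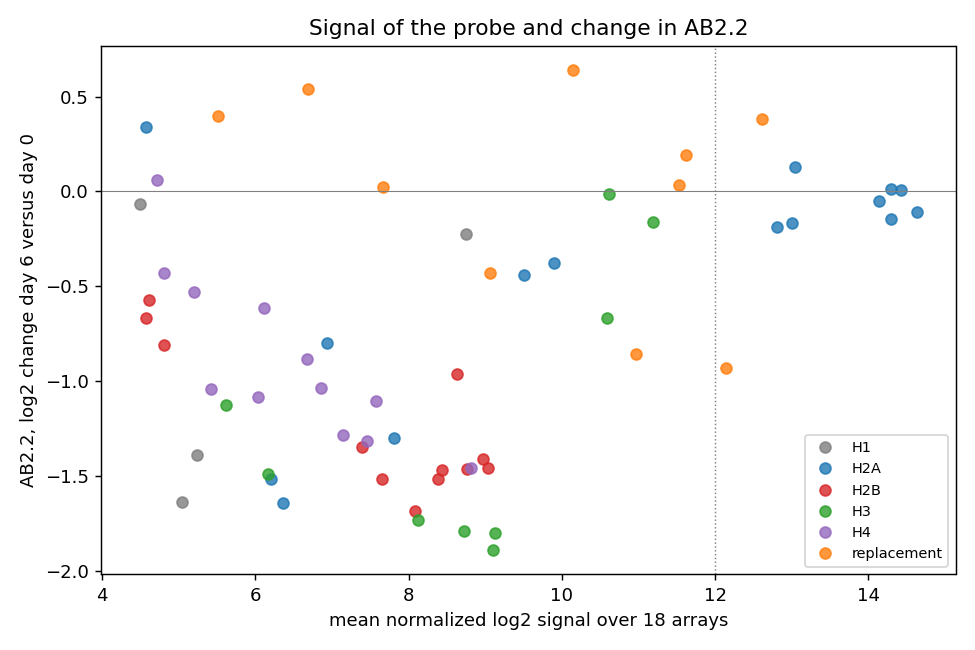
Log2 change in AB2.2 at day 6 against day 0 (vertical axis) over the mean normalized log2 signal of the gene's probe on 18 arrays (horizontal axis). Points are genes coloured by family, and the dotted line marks the mean signal of 12. The 8 H2A genes to its right lie between -0.19 and 0.14, while the 12 H2B genes lie between -1.69 and -0.57.

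The H2A and H2B genes of the Hist1 cluster often lie head to head, so that 1 stretch of DNA serves as the promoter of both. In RefSeq's GRCm38.p6 annotation 5 such pairs of measured replication-dependent genes on chromosome 13 had starts 164 to 249 bases apart. In 4 of the 5 the H2B gene changed more in AB2.2 at day 6. Hist1h2bk changed by -1.47 and its partner Hist1h2ah by -0.19. Hist1h2bn changed by -1.52 and Hist1h2ak by -0.17, Hist1h2bj by -1.46 and Hist1h2ag by -0.44, and Hist1h2bf by -1.41 and Hist1h2ad by 0.01. These values are of the brightest probes, and the second probes of Hist1h2ah and Hist1h2ad gave -0.31 and -0.40. The pair Hist1h2bg and Hist1h2ae went the other way round, with a fall of at least 1.31-fold for Hist1h2bg, which was not detected at day 6, and a change of -1.64 for Hist1h2ae. In PL2F8 at day 6, on the dim arrays with quantile normalization, this order was not kept. Hist1h2bk changed there by -0.27 and Hist1h2ah by -0.84, and Hist1h2bn by -0.56 and Hist1h2ak by -0.92. Hist1h2bj changed by -0.42 and Hist1h2ag by -0.62. For Hist1h2bf and Hist1h2ad the values were -0.61 and -0.42, and for Hist1h2bg and Hist1h2ae -0.20 and -0.26. The difference within a pair was not tested, since the signals are of different probes.

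Promoter windows from 250 bases before to 50 after the start were at hand from RefSeq for 65 of the 72 names. Windows of 4 genes are shown for what the families share and do not share: an H2B gene with the divergent promoter, an H3 and an H4 gene that fell in AB2.2, and the replacement variant that fell most there. Capitals mark the octamer ATTTGCAT, CCAAT and TATAAA on either strand, none of which contains another.
Hist1h2bk, chr13:22035571-22035870, plus strand: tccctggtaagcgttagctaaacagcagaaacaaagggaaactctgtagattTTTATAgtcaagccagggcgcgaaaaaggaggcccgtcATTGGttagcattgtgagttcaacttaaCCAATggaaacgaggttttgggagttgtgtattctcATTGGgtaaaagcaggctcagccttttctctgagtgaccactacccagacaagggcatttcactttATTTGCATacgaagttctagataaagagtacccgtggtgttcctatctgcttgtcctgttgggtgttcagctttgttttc
Hist1h3e, chr13:23562336-23562635, minus strand: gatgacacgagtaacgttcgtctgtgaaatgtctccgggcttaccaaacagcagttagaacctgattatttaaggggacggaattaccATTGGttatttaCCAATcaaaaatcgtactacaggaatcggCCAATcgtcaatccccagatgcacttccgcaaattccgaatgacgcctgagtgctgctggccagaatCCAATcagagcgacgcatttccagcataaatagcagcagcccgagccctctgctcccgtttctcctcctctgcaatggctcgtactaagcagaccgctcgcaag
Hist1h4i, chr13:22041313-22041612, minus strand: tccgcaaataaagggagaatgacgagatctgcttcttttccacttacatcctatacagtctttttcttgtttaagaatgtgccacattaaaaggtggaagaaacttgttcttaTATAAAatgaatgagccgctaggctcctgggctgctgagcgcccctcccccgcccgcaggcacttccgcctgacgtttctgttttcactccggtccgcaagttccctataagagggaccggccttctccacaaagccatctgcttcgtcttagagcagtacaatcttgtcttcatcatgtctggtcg
H2afz, chr3:137864237-137864536, plus strand: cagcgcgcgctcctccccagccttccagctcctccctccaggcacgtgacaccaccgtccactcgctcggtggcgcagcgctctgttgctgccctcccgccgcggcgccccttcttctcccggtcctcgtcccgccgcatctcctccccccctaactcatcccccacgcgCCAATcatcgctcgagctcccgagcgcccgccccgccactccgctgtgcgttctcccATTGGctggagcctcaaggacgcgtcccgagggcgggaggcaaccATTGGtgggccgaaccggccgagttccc
The octamer, known as a binding sequence of POU factors and as an element of H2B promoters, was in 6 of 11 H2B windows and 6 of 16 H2A windows, and in 0 of 5 H1, 0 of 7 H3 and 0 of 11 H4 windows. It was in 1.74% of all 32851 windows of the table. Since head-to-head genes share their window in part, the H2A and H2B counts are not independent. CCAAT was in every H1, H2A, H2B and H3 window, in 3 of 11 H4 windows and in 37.4% of all. TATAAA was in 10 of 16 H2A, 6 of 11 H2B, 7 of 11 H4, 4 of 5 H1 and 2 of 7 H3 windows, and in 13.6% of all. Among the replacement variant names CCAAT was in 7 of 10 windows, where H2afy2 and H2afy3 stand for the same gene and both count. The octamer and TATAAA were in 1, that of H3f3b. Letters in a window are a description and show no binding. The Hist1h2bk window holds all 3 motifs and also lies beside the start of Hist1h2ah, the gene whose signal changed by -0.19 in AB2.2 at day 6.

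The replacement variants did not move as a group. H2afz (H2az1), the gene of H2A.Z, fell in both lines. It was at 12.91 and 12.96 at day 0 in AB2.2, then 12.69 and 12.62, 12.05 and 12.13, 12.04 and 11.97, and 12.20 at day 8. In PL2F8 it was at 12.79 and 12.84, then 12.47 and 12.54, 11.51 and 11.47, 11.19 and 11.24, and 10.86. The days from 4 on did not overlap with day 0 in either line, and the changes at day 6 were -0.93 ± 0.07 in AB2.2 and -1.60 ± 0.07 in PL2F8 (limma adjusted p = 2.5e-07 and 1.1e-09), the latter -3.47 under median scaling. Already at day 4, before the dim arrays, the change was lower in PL2F8, with an interaction of -0.48 (adjusted p = 0.0037). H2afv (H2az2), the second H2A.Z gene, went slightly up on its brighter probe, with 0.19 in AB2.2 and 0.43 in PL2F8, but its other probe gave -0.23 and -0.08, so no direction is drawn.

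H2afx (H2ax), the variant phosphorylated at DNA breaks, is unusual in that its mRNA is known in both a stem-loop and a polyadenylated form. In AB2.2 it was at 11.52 and 11.62, 11.08 and 11.14, 10.77 and 10.72, 10.69 and 10.74, and 10.58, the only replacement variant whose group mean was lower at each step through day 8. In PL2F8 it was at 11.44 and 11.34, 11.22 and 11.41, 11.32 and 11.49, 10 and 10.01, and 10.28. The days 0 to 4 overlapped there, and the interaction at day 4 was 0.83 ± 0.13 (adjusted p = 3.5e-04). At day 6 both lines were lower, with changes of -0.85 and -1.39, the latter -3.43 under median scaling.

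MacroH2A is a large H2A variant found on the inactive X chromosome and on silent genes. H2afy (Macroh2a1) moved down and then up in both lines. In AB2.2 it was at 9.79 and 10.02, then 9.20 and 9.33, 10.32 and 10.39, 10.55 and 10.54, and 10.40. In PL2F8 it was at 10.04 and 10.09, then 9.30 and 9.34, 10.58 and 10.67, 10.61 and 10.72, and 10.80. Day 2 lay below every other day in each line, with a change of -0.69 ± 0.06 over both lines (limma adjusted p = 1.5e-06). The changes at day 6 were 0.64 and 0.60, and the interaction at day 6 was -0.04 with an adjusted p of 0.82. Under median scaling the PL2F8 value at day 6 was -1.41, below the median of all names of -1.05. H2afy2 (Macroh2a2) was higher in AB2.2 at day 6, from 5.93 and 5.80 to 6.32 and 6.21 (0.40 ± 0.10, adjusted p = 0.0053), with 6.73 at day 8. In PL2F8 it went from 5.93 and 5.95 through 5.13 and 4.92 at day 4 to a signal not detected at day 6, a fall of at least 1.98-fold with quantile normalization, and a change of -1.71 under median scaling. A second probe of H2afy2 with a mean of 4.43 gave -0.35 in AB2.2. The line difference was called at day 4 (-0.57, adjusted p = 0.01).

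H2afj (H2aj), an H2A variant with its own gene, differed between the lines at day 0, day 4 and day 6. In AB2.2 it was at 7.13 and 7.20 at day 0, 7.82 and 8.02 at day 2, 7.22 and 7.29 at day 4, 7.15 and 7.23 at day 6, and 6.48 at day 8, so it rose at day 2 and was back at its day 0 range by day 6. In PL2F8 it started lower, at 6.61 and 6.57, and went to 7.83 and 7.72, 8.08 and 8.18, 9.89 and 9.92, and 7.66. The day 0 difference was -0.57 ± 0.08 (limma adjusted p = 3.7e-04) and the interaction 1.44 ± 0.12 at day 4 (adjusted p = 3.8e-06) and 3.29 at day 6, where PL2F8 has the dim arrays and median scaling gave 1.08. Its second probe gave 0.06 in AB2.2 and 3.38 in PL2F8 at day 6.

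The H3.3 genes H3f3a and H3f3b encode the same protein and are the replacement form of H3. H3f3a lay between 11.54 and 11.78 on all AB2.2 arrays and between 11.52 and 11.59 on the PL2F8 arrays of days 0 to 4. It was not called in AB2.2 at day 6 (0.04, adjusted p = 0.68), though its second, dimmer probe gave -0.80. H3f3b differed between lines at day 0, with 12.30 and 12.23 in AB2.2 and 12.94 and 12.93 in PL2F8 (0.67 ± 0.10, adjusted p = 4.7e-04). It rose in AB2.2 to 12.79 and 12.50 at day 6 (0.38 ± 0.10, adjusted p = 0.0067), where its second, dimmer probe gave 1.21, while in PL2F8 the brighter probe gave -0.15 and the dimmer one 1.27. For H3f3a in AB2.2 and H3f3b in PL2F8 the probes thus disagree in sign. H1f0, the linker histone that marks cells leaving the cell cycle in many tissues, was at 6.91 and 6.99 in AB2.2 at day 0, 6.18 and 6.27 at day 2, 7.40 and 7.41 at day 4, 7.45 and 7.53 at day 6, and 7.24 at day 8. It rose by 0.54 ± 0.09 at day 6 (adjusted p = 2.2e-04), while in PL2F8 it went from 6.93 and 6.79 to 6.11 and 6.17 (-0.72, and -2.02 under median scaling). H1fx (H1f10), a further linker variant, lay between 8.59 and 9.36 on all arrays but the PL2F8 array of day 8 and fell by 0.43 in AB2.2 at day 6 on the log2 scale.

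**Figure D3:**
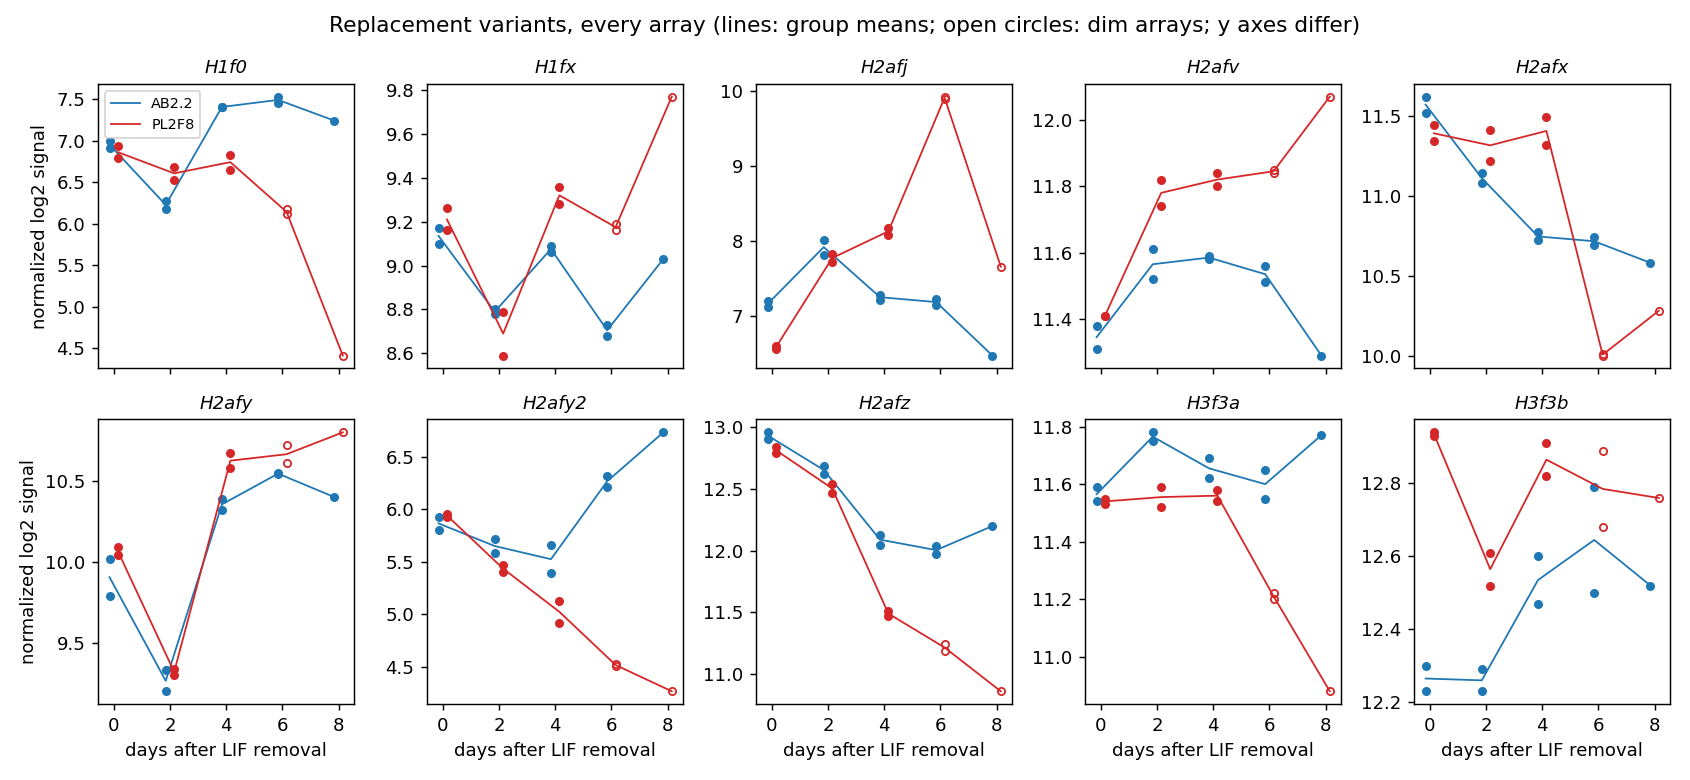
Normalized log2 signal (vertical axes, which differ in range) of the 10 measured replacement variants over days after LIF removal. Each point is an array, lines join the group means of AB2.2 (blue) and PL2F8 (red), and open circles are the dim PL2F8 arrays. H2afz goes down in both lines, H2afy dips at day 2 in both, and H2afj reaches 9.89 and 9.92 in PL2F8 at day 6 against 7.15 and 7.23 in AB2.2.

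The lines differed in histone signal before LIF was removed. At day 0, 37 of 52 replication-dependent genes were called lower in PL2F8 than in AB2.2 and 1 higher, while 12.8% of all names were called lower and 14.0% higher (limma, 2 arrays against 2, all of normal signal). The median difference was -0.44, beside 0.00 for all names. Lower were 14 of 15 H2A genes (median -0.59), 10 of 12 H2B genes (-0.45), 7 of 12 H4 genes (-0.50), 5 of 9 H3 genes (-0.30) and 1 of 4 H1 genes. Hist1h2ae stood at 6.29 and 6.22 in PL2F8 against 7.52 and 7.33 in AB2.2 (-1.17 ± 0.10, adjusted p = 4.4e-06), and Hist2h2aa1 at 6.52 and 6.28 against 7.53 and 7.38 (-1.06), with no overlap between lines in either gene. The bright H2A genes were lower too, 8 of 8, with differences from -0.63 to -0.31. Only Hist2h3c1 was higher (0.30, adjusted p = 0.0084). Of the replacement variants H3f3b was higher and H2afj lower, and the other 8 were not called. Under median scaling 30 of the 52 were lower and 1 higher, beside 75.3% higher among all calls of that setting and 52.1% here. Without replicate 1 of AB2.2 at day 0 the histone names called lower numbered 30 in place of 38. A list of S phase and E2F target genes had 2 of 23 called higher and 2 lower in the same comparison, with a median of 0.02.

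Through day 4, before the dim arrays, the PL2F8 medians were below 0 for every family but H2A. At days 2 and 4 they were 0.47 and 0.18 for H2A, -0.32 and -0.56 for H1, -0.24 and -0.64 for H2B, -0.65 and -0.59 for H3 and -0.43 and -0.53 for H4. Over both lines, 33 of 52 replication-dependent genes were called lower and 10 higher at day 2, against 22.8% and 22.3% of all names, and 36 lower and 6 higher at day 4, against 27.9% and 32.1%. All of the genes called higher at either day were H2A genes, and at day 2 they included the 8 bright ones, with a median of 0.27. Under median scaling 32.3% of all calls at day 2 and 40.9% at day 4 were higher, where 49.4% and 53.5% are here, and the 52 genes had 35 lower and 5 higher at day 2 and 39 lower and 1 higher at day 4. At day 2 the H2B median was -0.44 with 11 of 12 lower, and at day 4 it was -0.84 with 12 of 12 lower. The interaction at day 4 was called higher in PL2F8 for 13 of 52 genes and lower for 1, against 14.6% and 14.8% of all names. The 13 included 6 of 12 H2B genes and 5 of 15 H2A genes and no H3 gene. Hist2h2aa1 and Hist2h2aa2, whose proteins are alike and which share a cluster on chromosome 3, led with 1.79 ± 0.18 and 1.26 ± 0.12: Hist2h2aa1 went from 6.52 and 6.28 to 7.11 and 6.99 in PL2F8 and from 7.53 and 7.38 to 6.22 and 6.42 in AB2.2. Under median scaling the median interaction of all names at day 4 was -0.37, 3 of the 52 were called higher and 12 lower (12.1% higher among all calls, where 49.7% are here), and relative to all names the histone median was 0.28 where it is 0.19 here.

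At day 6 the dim PL2F8 arrays gave a mixed picture that depended on the scaling. With quantile normalization 17 of 52 replication-dependent genes were called higher in PL2F8 than at day 0 and 23 lower, against 31.4% and 34.7% of all names, so the count of higher genes is near the background. H4 was higher for 9 of 12 genes with a median of 0.70, H2B lower for 9 of 12 with -0.49, and H3 had 3 higher and 2 lower. Of the H3 genes, Hist1h3h and Hist2h3c1 were above day 0 on their brightest probes only. The dimmer probes gave -0.31 and -0.30 for Hist1h3h and -0.04 for Hist2h3c1. Hist1h4a was at 8.85 and 8.73 at day 0, 8.28 and 8.32 at day 2, 8.31 and 8.20 at day 4, 10.21 and 10.09 at day 6, and 10.44 at day 8, so the dim arrays were the only ones above day 0. Hist1h1c was at 9.82 and 9.90 at day 6, above 8.79 and 8.84 at day 0, and Hist2h2aa1 at 8.50 and 8.21, though its dimmer probes gave changes of 1.26 and -0.20. Under median scaling the median of all names in PL2F8 at day 6 was -1.05, the H4 median was -0.57, and 12 of 12 H4 genes were called lower. Relative to all names the medians were then 0.48 for H4, -0.71 for H3 and -1.25 for H2B. Among H4, H3 and H2B the order, H4 above H3 above H2B, was the same under both scalings, and the sign of the H4 change was not. The place of H2A moved: its median was below that of H3 with quantile normalization (-0.27 against -0.04) and above it under median scaling (-1.46 against -1.76). Of all calls in that comparison 47.5% were higher with quantile normalization and 9.3% with median scaling. The part of array brightness in these values was not tested.

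**Figure D4:**
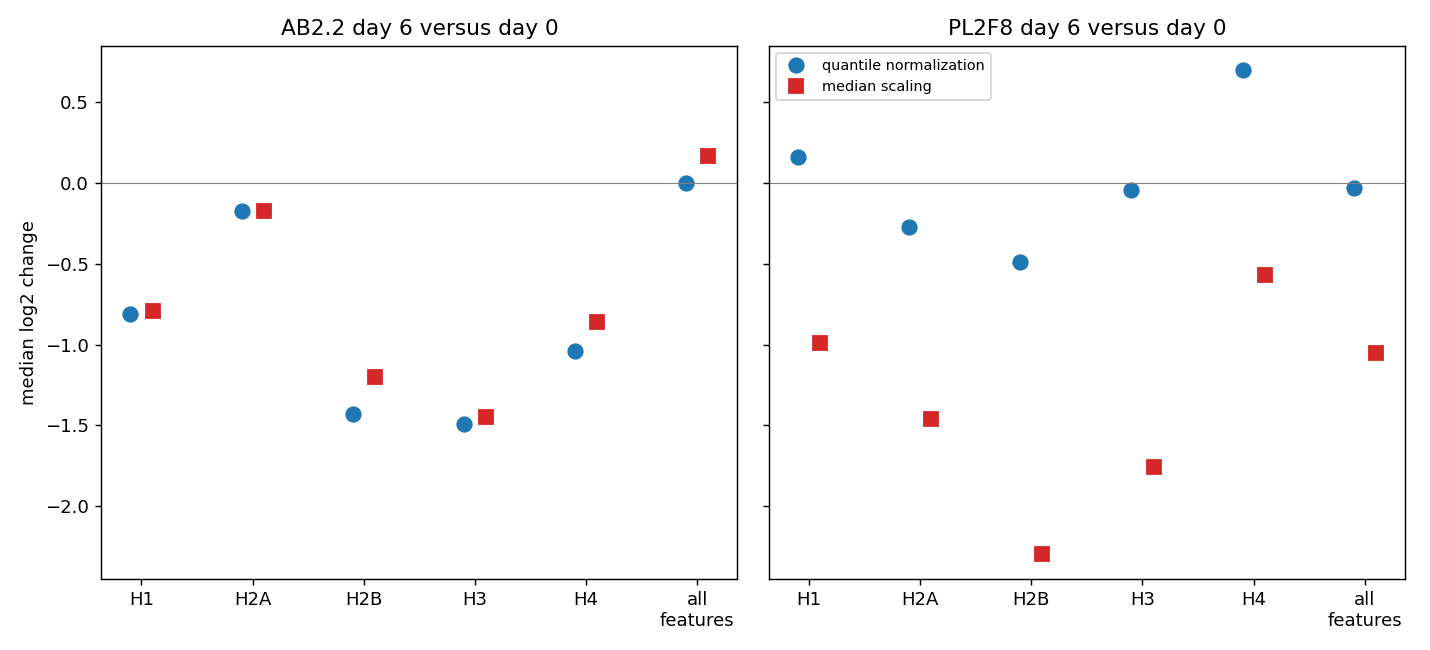
Median log2 change at day 6 against day 0 (vertical axis) of each replication-dependent family and of all names tested (horizontal axis), in AB2.2 (left) and PL2F8 (right). Circles are quantile normalization and squares median scaling. In AB2.2 the H2B, H3 and H4 medians are negative under both, while in PL2F8 the H4 median is 0.70 under the former and -0.57 under the latter.

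The difference between the lines' changes at day 6 followed from both. The interaction was called higher in PL2F8 for 34 of 52 replication-dependent genes and lower for 6, against 25.8% and 29.4% of all names, with a median of 0.93. All 9 H3 genes and 9 of 12 H4 genes were among the 34, and the 6 were bright H2A genes. For Hist1h3d it was 1.83 ± 0.13 (limma adjusted p = 2.9e-07), with 9.34 and 9.45 in PL2F8 at day 6 against 7.87 and 8.01 in AB2.2. For Hist2h2be it was 1.57, with 8.23 and 8.32 against 7.12 and 7.11. Under median scaling both turned, to -0.41 for Hist1h3d and -0.54 for Hist2h2be. Under median scaling the median interaction of all names was -1.38 and 8 of the 52 were called higher and 30 lower, with 5.1% higher among all calls where 46.8% are here. The histone median was -0.56, which is 0.82 above that of all names.

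**Figure D5:**
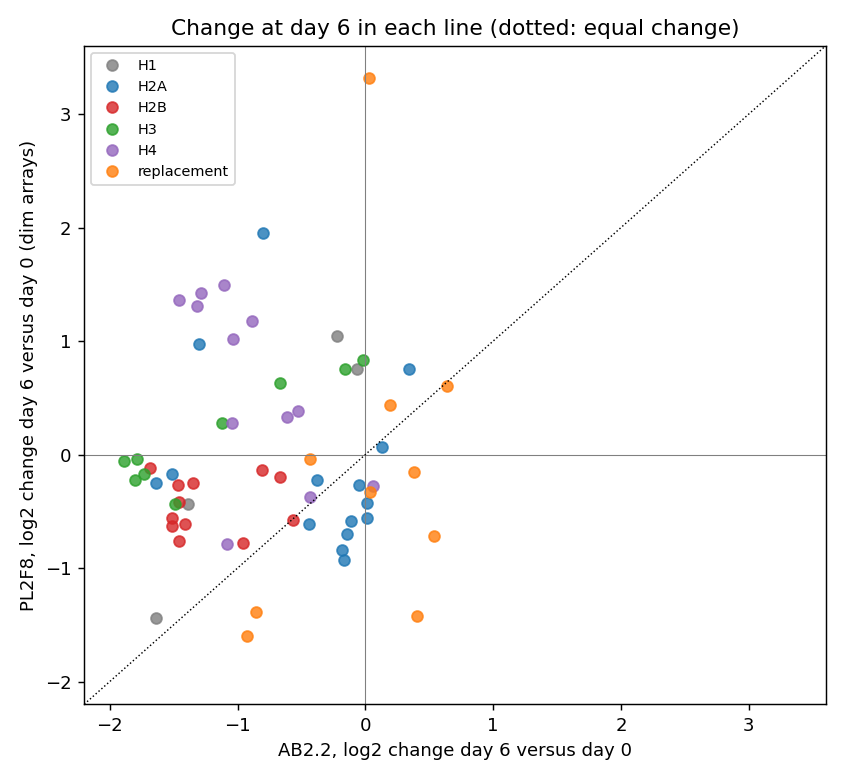
Log2 change at day 6 against day 0 in PL2F8, from dim arrays (vertical axis), and in AB2.2 (horizontal axis), both with quantile normalization. Points are genes coloured by family, and the dotted line marks equal change. Most H3, H4 and H2B genes lie above the line, and H2afj stands at 0.03 in AB2.2 and 3.32 in PL2F8.

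Genes that act on histones were taken from lists written for this work. Of 23 measured S phase and E2F target genes 17 were called lower and 0 higher in AB2.2 at day 6, with a median of -0.43, where 26.3% of all names were lower. In PL2F8 21 were lower and 0 higher, with a median of -0.87, where 34.7% of all names were lower. Under median scaling these medians were -0.14 and -2.78, beside 0.17 and -1.05 for all names. Over both lines, which at day 6 include the dim PL2F8 arrays, 22 of 23 were lower at day 6, beside 33.7% of all names. At day 4 11 of 23 were lower, beside 27.9% of all names. At day 2, where 33 of the 52 histone genes were called lower, 3 of these 23 were, beside 22.8% of all names. Tyms, which makes thymidylate for DNA synthesis, changed by 0.07 at day 2, -1.17 at day 4 and -1.88 at day 6. E2f2, a transcription factor of S phase genes, changed by -0.78, -1.18 and -1.92, Tk1, a thymidine kinase, by -0.44, -0.83 and -1.35, and Gins1, a part of the replicative helicase, by 0.03, -0.57 and -1.30. In PL2F8 at day 6, on the dim arrays with quantile normalization, these 4 were called lower, with changes from -2.65 to -1.58. On these arrays the H4 median was 0.70 with quantile normalization and -0.57 under median scaling. A link between the 2 was not tested.

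Chaperones of replication-coupled deposition hand new H3 and H4 to replicating DNA. At day 6 over both lines 12 of 14 were called lower and 1 higher, with a median of -0.45. Of all names 33.7% were lower and 34.1% higher. In AB2.2 alone 5 of 14 were lower and 1 higher (median -0.20), where 26.3% and 28.2% of all names were. In PL2F8, on the dim arrays, 11 were lower and 1 higher (median -0.67), where 34.7% and 31.4% of all names were. Under median scaling 22.9% of all calls at day 6 over both lines were higher, in place of 50.4%. Over both lines Asf1b changed by -1.42 ± 0.09, Rbbp7 by -1.0, Nap1l1 by -0.75 and Nasp by -0.65. The AB2.2 values of these genes were -1.40, -0.83, -0.52 and -0.49. Chaf1a, the large subunit of the assembly factor CAF-1, went up in AB2.2 (0.23, adjusted p = 0.032) and stood at -0.60 in PL2F8 on the dim arrays. Chaperones and remodellers of replacement variants had 6 called higher and 6 lower of 19 over both lines, and 5 and 7 in AB2.2 alone. The changes that follow are over both lines unless a line is named. Znhit1, Ruvbl1 and Ruvbl2, parts of the complex that exchanges H2A for H2A.Z, changed by -1.39, -0.81 and -0.69, and Ubn2, a partner of the H3.3 chaperone HIRA, by 0.63. The parts of the exchange complex did not move together. Srcap and Vps72 were called higher, with 0.23 and 0.31, and Actl6a was called lower, with -0.56. In AB2.2 alone Srcap and Vps72 were not called (0.06 and 0.14). Hira itself was not called (0.14, adjusted p = 0.17). Of 15 genes of histone mRNA processing and transcription 3 were higher and 7 lower over both lines, and 3 and 3 in AB2.2 alone. Zfp473, the zinc finger protein of the processing complex, changed by -1.65 and Coil, the coilin of Cajal bodies, by -0.75. Fip1l1 of the polyadenylation machinery changed by 0.75 and Snapc1 by 0.87. In AB2.2 alone these genes changed by -0.87, -0.71, 0.40 and 0.14, and Snapc1 was not called there. Npat, the coactivator of histone genes, was not called (0.19, adjusted p = 0.15), and the stem-loop binding protein gene Slbp had no probe that passed the filter. Of the histone fold genes outside the naming rule, Cenpa, the centromeric H3, stood at 0.37 in AB2.2 and at -0.66 in PL2F8 on the dim arrays, Cenpw changed by -0.37 over both lines and Cenpt was not called there.

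Cell type markers moved with the days in bulk RNA, in which fewer cells of a type and less RNA per cell cannot be told apart. All 10 ES cell markers were measured, and their summed linear signal went from 58222 to 58582 at day 0 to 20902 to 22418 at day 6 in AB2.2, and from 59742 to 62608 to 33121 to 33542 in PL2F8. All 8 visceral endoderm markers were detected in AB2.2 at day 6, with a sum of 20961 to 21099 after 499 to 536 at day 0, where Afp, Ttr and Gata4 were not detected. In PL2F8 the sum was 253 to 257 at day 0 and 1020 to 1261 at day 6, with Cubn, Gata4 and Foxa2 not detected. The 7 mesoderm markers summed to 230 to 237 and 1639 to 1689 in AB2.2 and to 177 to 187 and 1138 to 1250 in PL2F8. At day 0, T, Mixl1, Mesp1, Actc1 and Hand1 were not detected in AB2.2, nor Mixl1, Mesp1, Actc1, Myl3 and Hand1 in PL2F8. In PL2F8 at day 6, T, Mixl1 and Hand1 were not detected. The 4 measured of 6 neural markers summed in AB2.2 to 175 to 181 at day 0, 614 to 630 at day 4 and 404 to 430 at day 6. In PL2F8 the sums on these days were 179 to 189, 343 to 350 and 258 to 300. Neurog2 was not detected at day 0 or day 6 in either line. The 10 measured of 15 feeder fibroblast markers summed to 2545 to 2634 at day 0 and 2964 to 2991 at day 6 in AB2.2 and to 3313 to 3399 and 4550 to 4909 in PL2F8, with Col6a1 and Dcn not detected in AB2.2 and Col6a2 not in PL2F8 at day 0. The part of cell composition in the histone changes was not tested.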

How the data were processed

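Total RNA of 18 samples of 2 lines was labelled with biotin and hybridized to Illumina bead arrays. Per the file headers, the authors deposited an average signal (intensity), not normalized, and a detection p-value per probe. The authors' normalized table, also an intensity, carries gene names and no probe numbers. The scanner software and normalization were not given in the sources used here. Of 45281 probe lines 445 had shifted fields and were left out. Recomputing showed that the normalized table is the quantile-normalized signal, averaged over probes of a name, so probes were named by matching values: 30501 of 30848 names matched, among them all 72 histone names.

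The signal was corrected with limma 3.58.1 (R 4.3.3) by the normal-exponential model, the negative controls being inferred by limma from detection p-values, then given an offset of 16 and quantile-normalized. A name was given its brightest probe among those with detection p below 0.05 on at least 2 arrays. The linear model had 1 mean per line and day, 8 residual degrees of freedom and 4.14 prior ones, and p-values were adjusted by Benjamini and Hochberg over 16985 names. Day 8 has 1 array per line and is assumed to vary like the other groups. The number of arrays limits the precision. If no array of the lower side detected a gene, its fold is a bound ("at least"), from the lowest signal of a detected probe on those arrays or the gene's own signal where higher. Alternatives were no background correction, median scaling, stricter and no filter on dim probes, the authors' normalized values, the mean of all probes of a name, array weights, a replicate block, the 3 dim arrays left out and each array left out. Replicate numbers did not pair the samples: over 28 pairs of groups the correlation of replicate differences lay between -0.03 and 0.04.

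The histone names, gene lists and marker lists were chosen with earlier results of these data known. Array values, their range or the change alone are given for the replacement variants that passed the filter. The same holds for replication-dependent genes called by at least 2-fold at day 6 in AB2.2 or over both lines. These were taken in order of the AB2.2 change, up to 15. Of each list, changes are given for the 4 smallest p at day 6 over both lines, with Slbp, Npat, Cenpa, Chaf1a and Hira. Srcap, Vps72 and Actl6a were added after their values were seen. Other genes with array values (Hist1h2ah, Hist1h2bc, Hist1h1b, Hist1h1c, Hist1h4i, Hist2h2aa1) were chosen after their values were seen. Promoter windows and gene symbols came from RefSeq for GRCm38.p6. The model was tested on simulated data before use.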

Additional observations from a re-analysis of the deposited data

Results flagged for a closer look

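Differences between the changes of the lines from day 0 were taken as the PL2F8 change minus the AB2.2 change. The genes looked at were the 10 measured replacement variants and the 15 replication-dependent genes of largest AB2.2 change at day 6. Of these, 9 at day 4 and 22 at day 6 passed the interaction test of limma (adjusted p below 0.05). Of all names, 14.6% were called higher and 14.8% lower at day 4, and 25.8% and 29.4% at day 6. The 15 were picked by their AB2.2 change at day 6, which is a term of the day 6 interaction. That choice favoured positive values, so their day 6 calls are a description. At day 4, before the dim arrays, the differences were 1.44 for H2afj, 0.83 for H2afx, 0.81 for Hist1h2ae, 0.73 for Hist1h2bj, 0.65 for Hist1h2bn and 0.53 for Hist1h2bh. They were -0.48 for H2afz, -0.57 for H1f0 and -0.57 for H2afy2. These values are from quantile normalization. Under median scaling the median difference of all names at day 4 was -0.37, and Hist1h2bh turned to -0.05. Histone names called then went from 15 higher and 4 lower to 4 and 19. Of the genes given array by array after their values were seen, Hist2h2aa1 (1.79), Hist1h2bc (1.08), Hist1h1c (0.95) and Hist1h4i (0.51) also passed.

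At day 6, where PL2F8 has the dim arrays, the H3 genes differed by 1.83 (Hist1h3d), 1.75 (Hist1h3f), 1.58 (Hist1h3e), 1.55 (Hist1h3a) and 1.05 (Hist1h3c). The H2B genes differed by 1.57 (Hist2h2be), 1.20 (Hist1h2bk), 1.04 (Hist1h2bj), 0.96 (Hist1h2bn), 0.89 (Hist1h2bh) and 0.70 (Hist1h2be). The H2A genes Hist1h2ae and Hist1h2ab differed by 1.38 and 1.34, and the H4 gene Hist1h4a by 2.81. Of the replacement variants H2afj differed by 3.29 and H1fx by 0.40, while the values were -1.82 for H2afy2, -1.26 for H1f0, -0.67 for H2afz, -0.53 for H2afx, -0.53 for H3f3b and -0.37 for H3f3a. Of the genes chosen after their values were seen, Hist2h2aa1 (2.76), Hist1h4i (2.70), Hist1h1c (1.27), Hist1h1b (0.95) and Hist1h2ah (-0.65) also passed. The median difference of all names at day 6 was -0.03 with quantile normalization and -1.38 with median scaling, and the part of array brightness was not tested.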

How the results depend on the processing

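Of the 20 counts of histone names called in 1 direction (10 comparisons), all stayed within 1.5 times of the values reported with no background correction, either other filter, array weights and the replicate block, and 19 did with the authors' normalized values and with the mean of all probes. With either of these 2, AB2.2 at day 6 had 3 names higher in place of 5. Median scaling moved 11 counts. Names higher went from 12 to 6 at day 2, from 10 to 3 at day 4, from 10 to 2 at day 6 and from 7 to 0 at day 8 over both lines (0 is limma's count at adjusted p below 0.05), and names lower at day 8 from 37 to 59. In PL2F8 at day 6 names higher went from 20 to 3 and lower from 28 to 57. The interaction at day 4 went from 15 higher and 4 lower to 4 and 19, and that at day 6 from 36 and 12 to 9 and 39. Without the 3 dim arrays, where days 6 and 8 rest on AB2.2 alone, names higher were 5 at day 6 and 3 at day 8. That setting leaves no value for PL2F8 at day 6 or the day 6 interaction. With each array of days 0 to 6 left out in turn, the ranges were 12 to 13 higher and 36 to 40 lower at day 2 over both lines, 8 to 10 higher and 37 to 40 lower at day 4 over both lines, 7 to 11 higher and 36 to 40 lower at day 6 over both lines, 5 to 7 higher and 34 to 38 lower at day 8 over both lines, 3 to 6 higher and 37 to 41 lower in AB2.2 at day 6, 2 to 3 higher and 39 to 41 lower in AB2.2 at day 8, 16 to 20 higher and 23 to 29 lower in PL2F8 at day 6, 1 to 3 higher and 30 to 39 lower between lines at day 0, 12 to 18 higher and 4 to 5 lower in the interaction at day 4 and 35 to 37 higher and 12 to 13 lower in the interaction at day 6.

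Single genes turned direction in 46 of the results recomputed, under 3 settings. With median scaling, at day 4 over both lines it gave -0.25 for H3f3a. At day 6 over both lines it gave -0.58 for H2afv, -0.27 for H2afy and -0.64 for H3f3b. At day 8 over both lines it gave -1.80 for H1fx, -1.30 for H2afj, -1.70 for H2afv, -1.46 for H2afy and -1.78 for H3f3b. In PL2F8 at day 6 it gave -0.64 for Hist1h4a, -1.44 for H2afv and -1.41 for H2afy. In the interaction at day 4 it gave -0.48 for Hist1h3a, -0.05 for Hist1h2bh, -0.46 for H1fx and -0.49 for H2afy. In the interaction at day 6 it gave -0.41 for Hist1h3d, -0.68 for Hist1h3e, -0.45 for Hist1h3f, -0.57 for Hist1h3a, -0.54 for Hist2h2be, -1.05 for Hist1h2bn, -1.26 for Hist1h2bh, -0.31 for Hist1h3c, -1.0 for Hist1h2bk, -1.52 for Hist1h2be, -1.19 for Hist1h2bj, -1.90 for H1fx and -1.72 for H2afv. With the mean of all probes, at day 2 over both lines it gave 0.30 for Hist1h3f and 0.52 for H3f3b. At day 4 over both lines it gave -0.16 for H3f3a. At day 8 over both lines it gave -0.03 for H1fx. In AB2.2 at day 6 it gave -0.02 for H2afv and -0.38 for H3f3a. In AB2.2 at day 8 it gave -0.35 for H3f3a. In PL2F8 at day 6 it gave 0.56 for H3f3b. Without the 3 dim arrays, at day 6 over both lines it gave 0.58 for H1f0, 0.45 for H2afy2 and 0.04 for H3f3a. At day 8 over both lines it gave 0.32 for H1f0, -0.11 for H1fx, -0.75 for H2afj, -0.05 for H2afv, 0.97 for H2afy2 and 0.19 for H3f3a. In that last setting days 6 and 8 hold AB2.2 alone by construction. For the other turns the cause was not tested. The replicate block turned no direction, moved no count by over 1.5 times (it gave 4366 names higher and 4939 lower in the interaction at day 6, against 4383 and 4988) and changed 4 of 250 calls of single genes.

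Over all names, median scaling moved the calls, higher and lower, from 5800 and 5718 to 2866 and 9644 at day 6 and from 5457 and 6346 to 1261 and 11195 at day 8 over both lines. In PL2F8 at day 6 they went from 5327 and 5899 to 1200 and 11736, and lower calls in AB2.2 at day 6 from 4459 to 2899. Between lines at day 0 they went from 2373 and 2181 to 3604 and 1183, in the interaction at day 4 from 2480 and 2510 to 1008 and 7357, and in that at day 6 from 4383 and 4988 to 647 and 12147. With no filter, day 8 over both lines had 8694 names higher, and higher calls made up 57.6% in place of 46.2%. Under median scaling the AB2.2 share at day 8 was 63.5% in place of 49.9%, and that of both lines 10.1%. Without replicate 1 of AB2.2 at day 6 that line had 3 histone names higher at day 6 in place of 5, and without replicate 1 of AB2.2 or of PL2F8 at day 0 the day 0 comparison had 1 in place of 2. Signal over background limits Hist1h1a, Hist1h1d, Hist1h2bg and Hist2h2bb, not detected in AB2.2 at day 6, and Hist1h2ac, not detected there at day 0.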
